A study of Mus musculus with 14 samples.

Results

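Among the 160144 H3K4me1 sites of NG3 cells, 14258 were distal sites with an AP-1 motif at their centre. Distal means that the centre of the site lay more than 1 kb from every annotated transcription start site (TSS), which held for 135325 sites. The motif was TGACTCA, also called the TPA response element (TRE), or its reverse complement, anywhere in the central 200 bp of the site. The sites with the motif were 10.5% of the distal sites (95% Wilson interval 10.4 to 10.7), and 121067 distal sites had none.

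NG3 cells are a single clone of immortalized mouse embryo fibroblasts in which exon 4 of the endogenous Ash2l is deleted in all groups and human ASH2L, fused to the FKBP tag, is expressed from a lentiviral construct as FKBP-HA2-ASH2L. H3K4me1 was measured by ChIP-seq in 2 control libraries without dTAG-13, a PROTAC that degrades the fusion protein, and in 2 libraries each after 0.5, 2, 4, 8 and 16 h of dTAG-13, with 1 input library of the control and 1 of the 16 h treatment. The site list analysed here is a single set over all these libraries. It holds a start and an end for each site and no signal or read total, so nothing below compares treated with control cells. The list of changed sites per time point that the study describes was not used here.

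AP-1 is a family of dimeric transcription factors built from JUN proteins with FOS, ATF or BATF partners, which are induced by serum, growth factors and stress. In fibroblasts, AP-1 is known to bind mainly at enhancers, where it is thought to help open chromatin together with other factors. Monomethylation of H3K4 is the histone mark typical of enhancers, and it usually lies on the nucleosomes to either side of the bound factors. The presence of the motif is a property of the sequence and does not show that AP-1 was bound.

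The following central windows of 200 bp are shown because they hold the most motifs or were nearest to Jun or Cd44. Those of Jun and Cd44 lay 49322 and 27900 bp from the TSS of the gene. Among the 24 sites with 3 motifs, those shown were picked for their spacing after the values were seen. They are on the plus strand of mm10, with the motif in capitals. The first is the distal site with the most motifs, which lay in an intron of overlapping long non-coding RNA genes, 288737 bp from the TSS of N4bp1. Its window was chr8:87173895-87174094, and it held 4 motifs. The first pair and the last pair of these were each 34 bp apart, and the middle pair 68 bp.
N4bp1 site: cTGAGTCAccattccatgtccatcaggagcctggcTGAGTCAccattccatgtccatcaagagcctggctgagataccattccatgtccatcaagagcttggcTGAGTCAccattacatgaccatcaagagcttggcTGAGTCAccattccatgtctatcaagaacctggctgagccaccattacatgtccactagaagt
Windows with 3 evenly spaced motifs were found in an intron of Rbms3, 29 bp apart (chr9:116946894-116947093), in an intron of Camkmt, 10 bp apart (chr17:85098722-85098921), and between genes nearest to Cetn3, 13 bp apart (chr13:81852625-81852824). In the Camkmt window 70 of the 200 bases were masked as repeat. Within each of these windows and the N4bp1 window, the bases between the motifs recurred almost unchanged. The spacing is thus that of a sequence repeated in tandem, although the N4bp1 and Rbms3 windows had no masked base.
Rbms3 site: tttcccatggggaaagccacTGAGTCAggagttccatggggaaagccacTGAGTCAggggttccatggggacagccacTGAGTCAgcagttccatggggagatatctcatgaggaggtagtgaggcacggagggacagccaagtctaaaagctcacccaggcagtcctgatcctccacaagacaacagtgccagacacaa
Camkmt site: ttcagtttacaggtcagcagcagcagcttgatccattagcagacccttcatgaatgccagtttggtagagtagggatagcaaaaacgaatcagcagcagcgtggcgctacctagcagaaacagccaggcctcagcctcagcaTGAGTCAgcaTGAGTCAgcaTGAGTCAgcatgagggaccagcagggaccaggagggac
Cetn3 site: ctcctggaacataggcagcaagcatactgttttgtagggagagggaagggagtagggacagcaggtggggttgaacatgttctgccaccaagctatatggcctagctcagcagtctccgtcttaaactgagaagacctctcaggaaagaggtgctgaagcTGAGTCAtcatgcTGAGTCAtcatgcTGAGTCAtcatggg
The motifs were unevenly spaced in other windows with 3 motifs, of which those nearest to Kcmf1 (chr6:72926969-72927168), Gja1 (chr10:56582230-56582429) and Maf (chr8:116096711-116096910) lay between genes.
Kcmf1 site: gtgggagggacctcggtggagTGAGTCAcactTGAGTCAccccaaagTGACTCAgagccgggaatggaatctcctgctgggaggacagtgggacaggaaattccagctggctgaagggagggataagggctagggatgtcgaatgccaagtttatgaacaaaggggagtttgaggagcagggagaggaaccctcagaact
Gja1 site: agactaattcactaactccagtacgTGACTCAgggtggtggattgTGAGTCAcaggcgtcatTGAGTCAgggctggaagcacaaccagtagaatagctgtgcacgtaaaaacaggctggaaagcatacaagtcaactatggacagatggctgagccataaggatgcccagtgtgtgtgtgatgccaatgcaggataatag
Maf site: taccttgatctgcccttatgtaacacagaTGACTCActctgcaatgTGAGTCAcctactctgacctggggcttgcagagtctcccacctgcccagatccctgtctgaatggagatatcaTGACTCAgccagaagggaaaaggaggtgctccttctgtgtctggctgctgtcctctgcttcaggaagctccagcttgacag
The windows nearest to the named AP-1 genes and AP-1 regulated genes held a single copy each. The site with the motif that was nearest to Jun, which encodes the founding AP-1 subunit, lay in an intron of the antisense gene Junos (chr4:95101444-95101643). Another lay in an intron of Cd44, which encodes the hyaluronan receptor (chr2:102873346-102873545).
Jun site: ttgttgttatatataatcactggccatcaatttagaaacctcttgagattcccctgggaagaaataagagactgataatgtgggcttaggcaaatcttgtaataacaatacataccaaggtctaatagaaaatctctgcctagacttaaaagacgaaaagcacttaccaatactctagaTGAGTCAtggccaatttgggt
Cd44 site: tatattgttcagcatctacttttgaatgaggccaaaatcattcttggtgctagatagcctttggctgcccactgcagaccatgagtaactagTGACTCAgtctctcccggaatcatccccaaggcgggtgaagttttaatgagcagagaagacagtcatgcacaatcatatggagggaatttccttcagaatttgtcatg

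The motif was concentrated at the centres of distal sites. It was found in 2.91% of the 206187 windows of the same length that were 5 kb away from the centres and free of sites and TSSs, and in 3.10% of windows that tile the chromosomes. In 124932 sites compared with their own flanks the share was 10.8% against 2.93%, a difference of 7.86 percentage points (95% interval 7.68 to 8.05) and a ratio of 3.69. The centre exceeded the flanks on 20 of 20 chromosomes with sites, with 10.5% ± 0.352 (SD, n = 20 chromosomes) and a range of 9.65% to 11.1%. Sites within 1 kb of a TSS held the motif in 5.13% of their central windows. Site centres were richer in G and C than flanks, with medians of 48.0% and 43.0%, and within each quartile of GC content the ratio of centres to flanks in the same GC range lay between 3.12 and 4.02.

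The same windows were searched for all words of 7 bases. Of 8192 words, TGACTCA had the largest difference between centres and flanks, 7.62 percentage points, and the fifth largest ratio, 3.61, behind words made only of C and G such as CGCCGCG. Among the 5432 words without a CpG it ranked 1 by ratio. The words next in rank overlapped it, led by GAGTCAC with a ratio of 2.33. The leading words that did not overlap the motif were CTGCCAG with 2.00 and CAGCTGC, which holds the E-box of MyoD type, with 1.97. The median word without a CpG had a ratio of 0.999.

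A change of a single base left little of the enrichment in words without a CpG. There were 19 distinct words that differ from TGACTCA at 1 position, counted from 1 at its 5′ end. The 16 of them without a CpG had ratios from 0.893 to 1.37, with a median of 1.17. The lowest was the change G2A with 0.893, followed by C6T with 0.924. The highest among words without a CpG was C6A with 1.37. The 3 changes that create a CpG had higher ratios, with 2.38 for A7G, 2.27 for T1C and 1.55 for T5G.

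The bases next to the motif differed between centres and flanks. A T before the motif was found at 8.99% of the occurrences in site centres against 20% of those in flanks, and an A after it at 11.7% against 25.3%. ATGACTCAC was the form with the largest ratio, 6.29, with 974 occurrences in centres and 236 in flanks. GTGACTCAT followed with 5.96 and GTGACTCAC with 5.42. At the other end, TTGACTCAA occurred 204 times in centres and 339 times in flanks, a ratio of 0.917. Occurrences with neither a T before nor an A after made up 80.6% of those in centres and 60.3% of those in flanks, with a ratio of 4.98, and those with only one of these bases had a ratio of 1.96. The motif followed by GC, TGACTCAGC, part of the longer element bound by MAF and NRF2 proteins, was present in 1.17% of centres against 0.222% of flanks, a ratio of 5.29.

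Within the central 200 bp the motif had no preferred place. Of 14949 occurrences, 52.2% had their middle base within 50 bp of the centre (95% Wilson interval 51.4 to 53.0), against 52.1% for an even spread. Around all distal sites the density was 0.571 motifs per kb within 50 bp of the centre, 0.350 at 250 to 350 bp and 0.191 beyond 2 kb. The extent of the raised density followed the width of the site. In sites of 1000 bp or wider it was still 0.446 motifs per kb at 250 to 350 bp, where sites under 400 bp had 0.277. These narrow sites had their highest density, 0.589, at 50 to 100 bp from the centre toward higher coordinates, against 0.560 at this distance on the other side. In sites under 400 bp the share within 50 bp was 50.1% (48.7 to 51.5), below the even share.

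**Figure D1:**
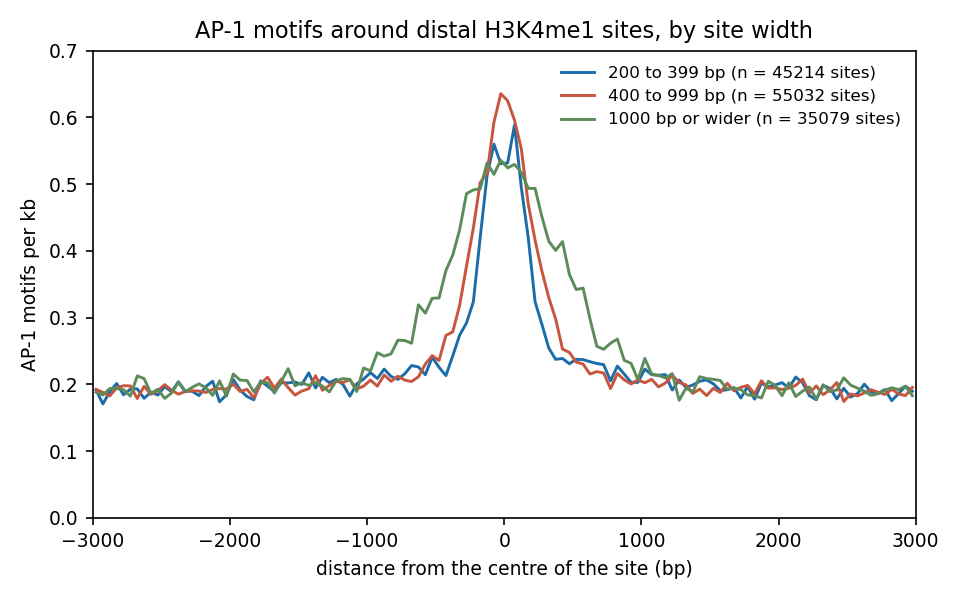
AP-1 motifs per kb (vertical axis) in bins of 50 bp against the distance from the centre of the site in bp (horizontal axis) for distal sites of 3 width classes, 1 line per class. All lines peak within the site and meet near 0.19 motifs per kb beyond 2 kb, and the line of the widest sites stays raised farthest from the centre.

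At the edges of the 35079 distal sites of 1000 bp or wider the density rose gradually toward the interior. It was 0.190 motifs per kb at 100 to 200 bp outside the edge, 0.228 in the last 100 bp outside, 0.242 in the first 100 bp inside, 0.347 at 200 to 300 bp and 0.462 at 400 to 500 bp inside.

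Sites with the motif had a median width close to that of other distal sites, as listed, and were rarer among the widest. The median was 561 bp with the motif (quartiles 342 and 967) and 562 bp without it (331 and 1034), a difference of -1 bp (95% Price-Bonett interval -10.3 to 8.29). Sites with the motif had the larger median on 12 chromosomes and the smaller on 8. The share of distal sites with the motif was 9.59% at 200 to 249 bp, 11.6% from 700 to under 1000 bp, 8.62% at 2000 to 2999 bp and 6.80% at 3000 to 4999 bp, while their flanks stayed between 2.27% and 3.15%. These shares concern the central 200 bp alone. A motif anywhere in the site was present in 10.7% of distal sites at 200 to 249 bp, 70.4% at 3000 to 4999 bp and 85.7% from 5000 bp. Over whole sites the density was 0.509 motifs per kb in the narrowest of these classes and 0.294 in the widest. Among sites with the motif 0.561% were 5000 bp or wider, against 0.886% of the others. Among sites of at least 500 bp the sites with the motif were narrower, by a difference of -50 bp (interval -66.0 to -34.0). After sites within 1 kb had been merged the difference was -158 bp (-174 to -142). It was 0 bp for centres over 3 kb from every TSS and 3 bp for motifs in the central 100 bp. In windows without repeat-masked bases it was 13 bp, and within quartiles of GC content 6.75 bp. The intervals of these last settings, from 0 to 13 bp, included 0.

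**Figure D2:**
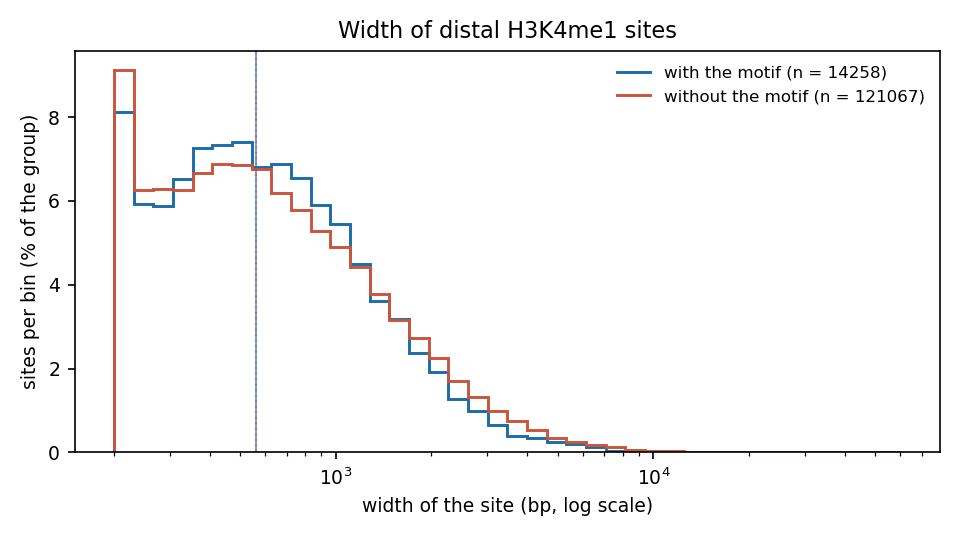
Share of the sites in each width bin (vertical axis, % of the group) against width in bp on a log scale (horizontal axis) for distal sites with and without the motif; vertical lines mark the medians of 561 and 562 bp, which coincide. The sites with the motif are more frequent between about 300 and 1000 bp and less frequent at both ends.

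The 5 widest sites with the motif each held 1 copy in the central window. They lay in introns of Sorcs2 (15009 bp), Zmiz1 (12839 bp) and Glipr2 (12547 bp) and between genes nearest to Irf2bpl (12554 bp) and Gadd45b (12048 bp). Zmiz1 encodes a transcriptional coactivator of the PIAS-like family and Gadd45b a stress-induced protein. The widest distal site without the motif in its central window measured 50106 bp.

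Some windows held several motifs. Of the 14258 sites, 665 held 2 or more (4.66%, 4.33 to 5.02), comprising 640 with 2, 24 with 3 and 1 with 4. Among the 6010 flank windows with a motif, 99 held 2 or more (1.65%, 1.35 to 2.00), a difference of 3.02 percentage points (95% Newcombe interval 2.53 to 3.48). This share rises with the density of the motif, which was higher at site centres. Independent placement at the observed densities gives 5.42% at centres and 1.48% in flanks, so the difference does not show that motifs clustered. The 691 pairs of neighbouring motifs started a median of 49 bp apart (quartiles 25 and 86). Of these pairs, 144 (20.8%) started within 20 bp, and 392 had the same orientation against 299 with opposite orientation. The most common distances were 10, 11 and 14 bp, with 15 pairs each. The 25 sites with 3 or more motifs had a median width of 618 bp, 13 lay in introns and 12 between genes, and 13 had no repeat-masked base in the window.

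Sites with the motif stood farther from their neighbours. The breakdowns by distance to the next site, here and for locations and gene lists, were chosen after the data were seen. The centre of the next distal site was within 2 kb for 32.7% of the sites with the motif and for 43.5% of the others, a difference of -10.8 percentage points (95% Newcombe interval -11.6 to -9.95), and the median distance was 3378 against 2424 bp. Counted the other way, the motif was held by 7.66% of sites with a neighbour within 1 kb, 8.38% at 1 to 2 kb, 11.1% at 2 to 5 kb, 12.6% at 5 to 10 kb and 15.1% beyond 30 kb. The flanks of the same sites lay between 2.77% and 2.97%. Sites over 2 kb from the next exceeded sites within 2 kb on 20 of 20 chromosomes, by 4.16 percentage points overall (3.84 to 4.48). The difference was present in each width class, with 12.8% against 7.48% under 400 bp, 13.6% against 8.56% from 400 to under 1000 bp and 10.2% against 8.43% from 1000 bp. Another site with the motif was found within 10 kb of 19.7% of the sites with it and of 21.1% of the others, a difference of -1.44 points (-2.12 to -0.738). When sites within 1 kb were merged, the difference between the isolated and the close sites was 1.36 points (0.449 to 2.21).

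**Figure D3:**
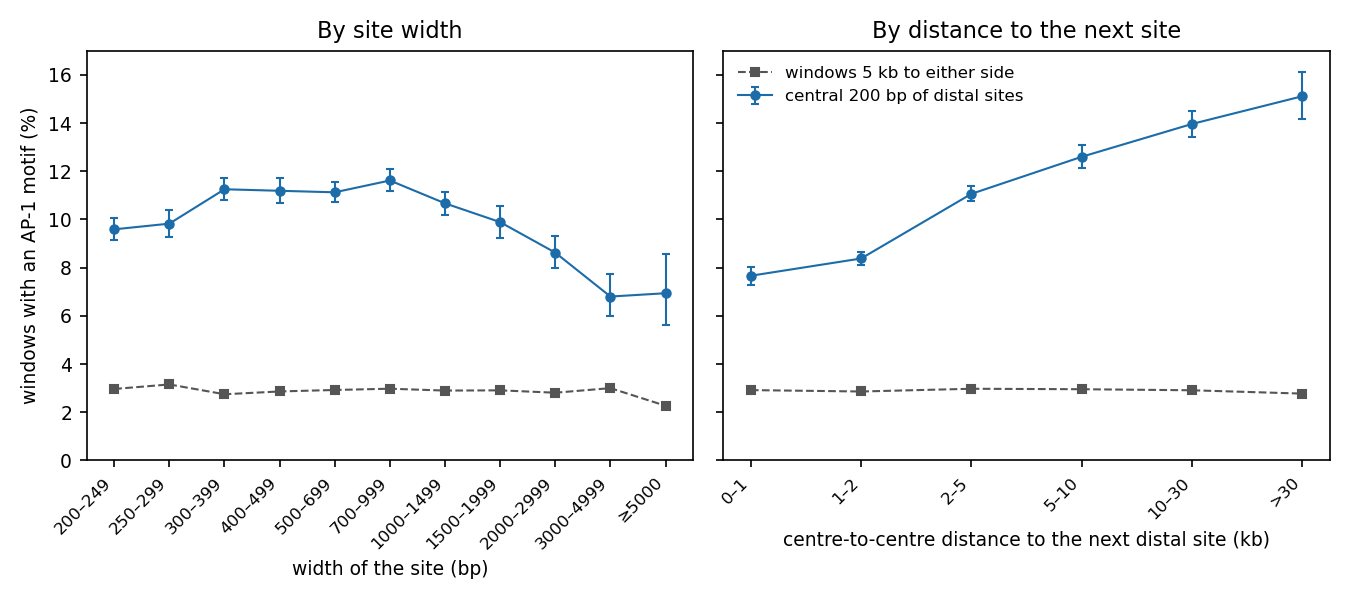
Share of 200 bp windows with an AP-1 motif (vertical axis, %) by the width of the site (left, bp) and by the distance to the centre of the next distal site (right, kb); circles are site centres with 95% Wilson intervals and squares are windows 5 kb to either side. The share falls to 6.80% in sites of 3000 to 4999 bp and rises from 7.66% to 15.1% with distance, while the squares stay near 3%.

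Sites with the motif lay more often between genes. Introns held the centres of 7417 of them (52.0%) against 56.8% of the others, a difference of -4.78 percentage points (95% Newcombe interval -5.64 to -3.91). Between genes lay 6300 (44.2%) against 38.9%, a difference of 5.29 points (4.43 to 6.15), and in exons 541 (3.79%) against 4.31%. The motif was thus present in 11.8% of distal sites between genes and in 9.74% of those in introns, where the flanks had 3.06% and 2.81%. The higher share between genes was seen for sites over 2 kb from the next, 13.5% against 11.5% in introns, and for sites within 2 kb, with 1902 of 20843 between genes and 2613 of 34372 in introns. The median distance to the nearest TSS was 13714 bp with the motif and 12624 bp without it, a difference of 1090 bp (95% Price-Bonett interval 681 to 1498). The share of sites with the motif was 8.90% at 1 to 3 kb from a TSS and 11.4% beyond 100 kb.

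The sequence around the motif was compared with that of other distal sites. With the motif left out, the median GC content was 48.2% against 48.0%, a difference of 0.187 points (-0.0672 to 0.440). The difference was 0.723 points (0.370 to 1.08) in windows without repeat-masked bases and 0.668 points (0.316 to 1.02) in sites of at least 500 bp. Windows with 5 or more CpGs were fewer, 10.4% against 12.3%, and so were windows masked as repeat over at least 100 of the 200 bp, 9.26% against 10.9%. Of the occurrences of the motif at sites, 15.6% were in repeat-masked sequence, against 22.6% of those in flanks.

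None of 20 other listed motifs was called more or less frequent beside the AP-1 motif. For this comparison the AP-1 motifs were masked, and the same number of bases was masked in the other sites at the same places, so that both had the same length of sequence to search. The masking of the other sites was adopted after the comparison without it had been seen, which called 3 motifs, all of them less frequent beside the AP-1 motif (TEAD, GC box and glucocorticoid receptor). With intervals at the Bonferroni level over the 20 motifs, 0 were higher and 0 lower. The motif of TEAD factors, CATTCC, which act with YAP in fibroblasts, was found in 13.7% of sites with the AP-1 motif and in 14.3% of the others, a difference of -0.568 points (95% interval -1.16 to 0.0391). The GC box GGGCGG of SP factors had 3.32% against 3.73%, the ETS motif CCGGAAG 1.07% against 0.900% and the NFI motif 13.3% against 12.7%. Before the adjustment, the 95% intervals of these differences left out 0. The motif of RUNX factors, TGTGGTT, had 5.72% against 5.67%. Of 8110 words of 7 bases, 20 were more and 17 less frequent at the Bonferroni level over the words, with ACCCAGC at 5.60% against 4.28% among the former and runs such as AAAAAAA at 6.34% against 7.92% among the latter.

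Several of these motifs were, however, more frequent at distal site centres than in flanks irrespective of AP-1. All 22 listed motifs were compared in this way, and 17 were higher and 5 lower at centres by 95% Newcombe intervals. Apart from TGACTCA and TGACTCAGC, the rare EGR motif had the largest ratio, 3.36, with 0.0392% of centres against 0.0116% of flanks. The GC box followed with 2.08 and the NF-kB motif with 1.84. The TEAD motif was present in 15.1% of centres against 10.4% of flanks (ratio 1.45), the E-box CAGCTG in 13.6% against 7.70% (1.76) and the cAMP response element TGACGTCA in 0.202% against 0.115% (1.76). The motif AGATAA of GATA factors was lower with 8.81% against 12.6%, and so was the octamer ATGCAAAT, bound by OCT factors, with 0.950% against 1.48%. These comparisons were not matched for GC content, which had medians of 48.0% at centres and 43.0% in flanks. The part of base composition in these differences was not tested.

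**Figure D4:**
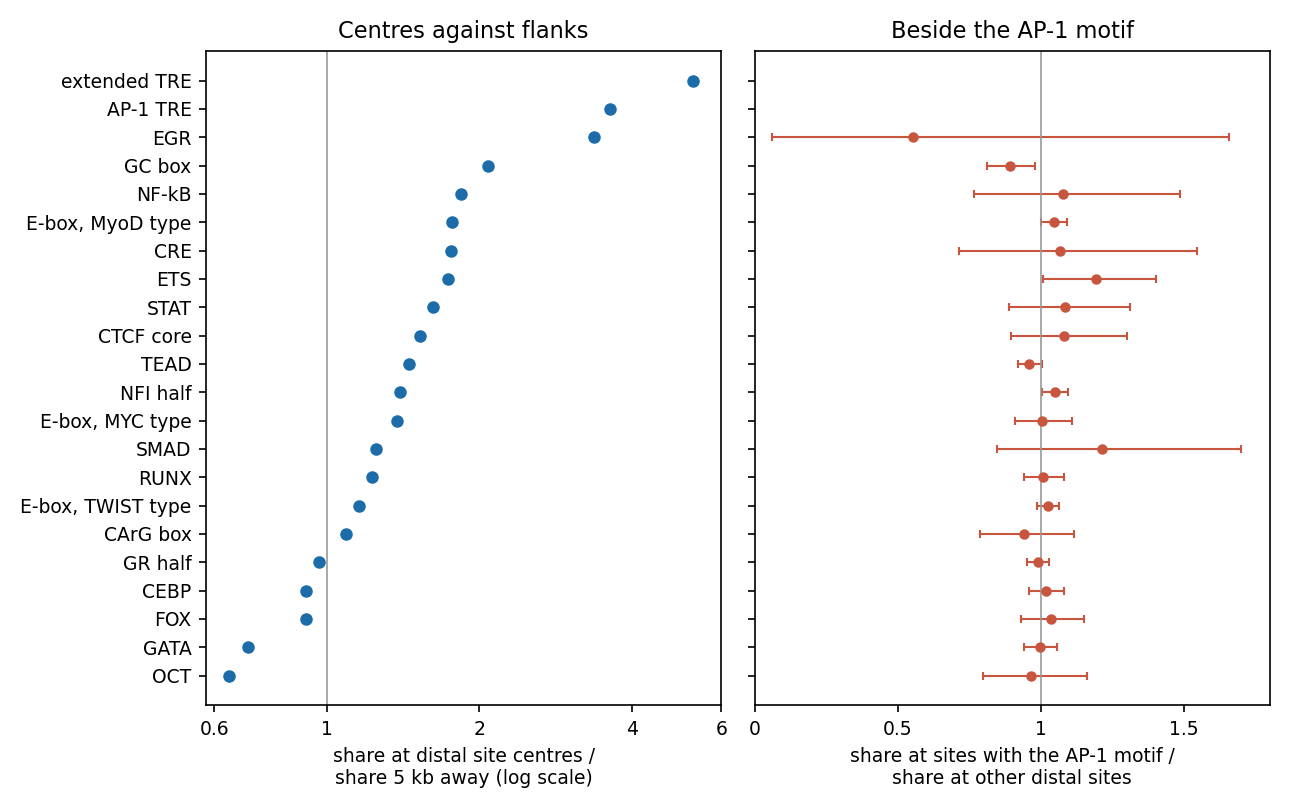
Left, ratio of the share of windows with each listed motif at distal site centres to that 5 kb away (log scale); right, ratio of the share at sites with the AP-1 motif to that at other distal sites, with 95% intervals of the difference divided by the share of the others. The AP-1 forms lead on the left with ratios of 5.29 and 3.61, while on the right the ratios lie near 1, and the rare EGR motif, with 3 sites, has the widest interval.

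By the nearest TSS of a protein-coding transcript, 6716 of 21938 protein-coding genes (30.6%) had at least 1 distal site with the motif. Of these genes 3628 had exactly 1, and 86 had 10 or more. The genes with the most were Maf, Myc and Sox9 with 19 each, Pde4d and Rnd3 with 17, Cited2 and Rora with 16, and Dlg2, Epha4, Inhba and Rbms3 with 15. Maf encodes a bZIP factor, Sox9 the main transcription factor of chondrogenesis, and Inhba a subunit of activin. These genes also had many distal sites in all, and the share with the motif differed among them, from 17 of 230 at Pde4d, which encodes a cAMP phosphodiesterase, and 19 of 234 at Myc to 15 of 75 at Dlg2. Among all 1039 genes with at least 30 distal sites, the median share was 9.38% (quartiles 6.25 and 13.1). Grouped by number of sites, which was chosen after the data were seen, genes with 1 to 4 distal sites had the motif at 12.6% of these sites, and genes with 60 or more at 9.31%. Chosen after their values were seen, Xylt1 had the motif at 9 of 30 distal sites and Ptprk at 0 of 41. The Wilson interval of Ptprk reached 8.57%, but it does not account for the choice of this gene among the 1039.

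The 12 genes of AP-1 subunits differed in how many such sites they had. Sites with the motif were nearest to 5 of the 12 genes (41.7%, against 30.6% of all coding genes). Jun had 4 of its 42 distal sites with the motif, Fosl2 3 of 67, Fosb 3 of 7, Jdp2 1 of 26, and Batf2 its only one. None was found at Fos (0 of 18), Atf3 (0 of 16), Batf3 (0 of 6), Batf (0 of 3) or Fosl1 (0 of 2), and Junb and Jund had no distal site nearest to them. In all, 12 of 188 sites held the motif (6.38%, 3.69 to 10.8), an interval that included the 10.5% of all distal sites. The nearest site with the motif lay 6992 bp from the TSS of Batf2, 7289 bp from that of Fosb, 11334 bp from that of Fosl2 and 49322 bp from that of Jun.

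Genes known to be regulated by AP-1 in fibroblasts and other cells were described in the same way. Of 30 listed genes 29 were found among the coding genes, and 14 of them (48.3%) had such a site, against 30.6% of all coding genes. Cd44 had 4 of 43, Ptgs2, which encodes the cyclooxygenase COX-2, 3 of 32, Vegfa 3 of 29 and Ezr, which encodes the membrane linker ezrin, 2 of 13. The matrix metalloproteinase genes Mmp3, Mmp9, Mmp10 and Mmp13 had none among 2, 2, 5 and 8 distal sites. Together the list had 26 of 398 (6.53%, 4.50 to 9.40), against 10.5% of all distal sites. The nearest site with the motif lay 3270 bp from the TSS of Ezr, 4212 bp from that of Vegfa, 15414 bp from that of Ptgs2 and 27900 bp from that of Cd44.

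The other lists lay between 6.63% and 16.0%. For 24 targets of YAP and TEAD, 16 genes (66.7%, against 30.6% of all coding genes) had a site with the motif, led by Rbms3 with 15 of 132 and Crim1 with 7 of 66, and the share over the list was 6.77% (64 of 945, 5.34 to 8.56). For 30 genes of matrix and collagen it was 6.63% (58 of 875, 5.16 to 8.47), led by Thbs1 with 8 of 132 and Tnc, which encodes tenascin-C, with 6 of 63. For 26 mesenchymal transcription factors it was 7.58% (80 of 1055, 6.13 to 9.34), with Ebf1 at 13 of 76, Tcf4 at 11 of 103 and Runx1 at 10 of 91. The serum response genes had 8.46% (51 of 603), with Myc at 19 of 234 and Klf4 at 10 of 85, and the genes of integrins and focal adhesion 9.18% (57 of 621), with Tns1, which encodes tensin-1, at 9 of 64. The 49 genes of cytosolic ribosomal proteins, a list with no fibroblast character, had 11.4% (24 of 211). The intervals of the AP-1 regulated genes, the YAP and TEAD targets, the matrix genes and the mesenchymal transcription factors lay below the 10.5% of all distal sites. Those of the AP-1 subunits, the serum response genes, the integrins and focal adhesion genes, the ribosomal proteins and the fibroblast markers described below included it. The genes of most lists also had more distal sites. The median was 9 for AP-1 regulated genes and 27 for YAP and TEAD targets, against 2 over all coding genes. The shares of genes with a site are to be read beside these numbers. The share of sites with the motif also fell with the number of sites per gene, to 9.31% for genes with 60 or more. The part of this in the shares of the lists was not tested. The median number of sites with the motif per gene was 0 to 2 in all 10 lists, and 0 over all coding genes.

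**Figure D5:**
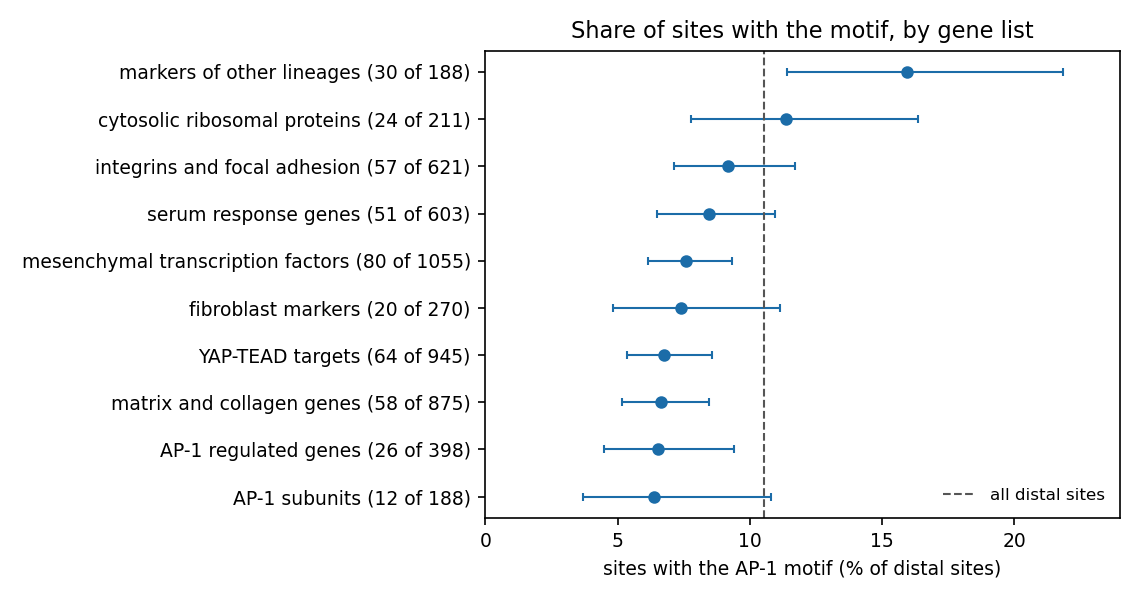
Share of distal sites that hold the AP-1 motif (horizontal axis, %) for the sites nearest to the genes of each list, with 95% Wilson intervals and the numbers of sites beside the names; the dashed line marks the 10.5% of all distal sites. Lists of fibroblast genes and AP-1 targets lie left of the line, some with intervals that cross it. The markers of other lineages, with 30 of 188, lie right of it, and so do the ribosomal proteins, with 24 of 211 and an interval that crosses the line.

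Distal sites were closer to each other in the lists of fibroblast genes than on average. The next distal site was within 2 kb for 54.8% of the sites of AP-1 regulated genes and for 52.9% of those of matrix genes, against 42.3% of all distal sites. Among sites over 2 kb from the next, the share with the motif was 4.44% for AP-1 regulated genes (8 of 180, 2.27 to 8.52), 7.04% for matrix genes (29 of 412, 4.95 to 9.93), 8.74% for YAP and TEAD targets (36 of 412, 6.38 to 11.9) and 10.4% for mesenchymal transcription factors (55 of 530, 8.06 to 13.3), against 12.3% of all such sites. Among sites within 2 kb it was 8.26% for AP-1 regulated genes (18 of 218), 6.26% for matrix genes (29 of 463), 5.25% for YAP and TEAD targets (28 of 533) and 4.76% for mesenchymal transcription factors (25 of 525), against 8.14% of all such sites. The order of the lists thus differed between both classes of sites. The part of site density in the differences between lists was not tested beyond these values. Sites at the same locus share their surroundings, so these intervals cover counting error only.

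The label of the cells as fibroblasts was compared with marker genes, for which the site list gives the mark at the promoter and no expression. A site within 1 kb of a coding TSS was found for 11 of 12 fibroblast markers and for 8 of 22 markers of other lineages, against 66.5% of all coding genes. The fibroblast marker without one was Col3a1. The 8 markers of other lineages were Cdh5, Pecam1 and Tek of endothelium, Cdh1 and Epcam of epithelium, and Apoa1, Neurod1 and Pou5f1. Among distal sites the fibroblast markers had the motif at 20 of 270 (7.41%, 4.85 to 11.2), with Fn1, which encodes fibronectin, at 5 of 73 and Col3a1 at 4 of 26. The markers of other lineages had it at 30 of 188 (16.0%, 11.4 to 21.9), of which 12 of 70 were nearest to Cdh5, which encodes the cadherin of endothelial cells, and 7 of the 22 genes had no distal site at all.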

How the data were processed

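The authors measured H3K4me1 by ChIP-seq in 12 libraries of NG3 cells, with 2 inputs. After trimming by Trim Galore and alignment by BWA (mm10), unusable reads were removed, replicates were joined with Picard MergeSamFiles, and Macs called broad peaks. The submitters' processing notes also name deepTools and DESeq2. Versions are not given in the sources used here. The deposited table lists the chromosome, start (counted from 0) and end of each site for all samples together, without any signal.

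Distances to TSSs used all transcripts of GENCODE release M21, and sequence was GRCm38.p6. Release M25, named by the study, was not used here. The 36 sites on scaffolds were left out. Flank windows lay 5 kb from the centre on either side, overlapped no site and had their own centres over 1 kb from every TSS. Nearest genes were taken by the TSS of protein-coding transcripts. Motifs were searched on both strands, and overlapping matches counted. Beside the motifs spelled out in the text, the list held those of C/EBP (TTGCNNAA), NFI (TTGGCA), bHLH factors (CATCTG and CACGTG), NF-kB (GGAATTTCC), STAT (TTCCNGGAA), FOX (TGTTTAC), CTCF (CCACNAGGG), EGR (GCGTGGGCG), SMAD (GTCTAGAC) and the glucocorticoid receptor (AGAACA), and the CArG box. TGACTCAGC overlaps TGACTCA. Repeat-masked bases are those in lower case in the genome file.

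Intervals of 95% are Wilson intervals for shares, Newcombe intervals for differences of shares, Price-Bonett intervals for differences of medians and a paired interval for centres against flanks. Only counting error is covered, as though sites were independent, which neighbours are not. The share of windows with 2 or more motifs under independent placement is from a Poisson distribution. Python 3.11.15, numpy 2.4.6, scipy 1.17.1 and matplotlib 3.10.9 were used, and the functions were tested on simulated data. The members, motifs and gene lists were chosen with earlier results of these data known. Named genes are the 10 with the most sites with the motif, up to 4 per list with the most, and those nearest to the sites with the most motifs and to the 5 widest. Other genes were named after their values were seen, where a count of few genes is given in full. Of the 35 alternatives, 3 were chosen after seeing the data.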

Additional observations from a re-analysis of the deposited data

How the results depend on the processing

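Of 35 alternatives to 10 results, 25 changed neither a call nor a count by over 1.5 times. Among these 25, the difference in median width, -1 bp in the main setting, did change sign. It was 3 bp for motifs in the central 100 bp, 13 bp in windows without repeat-masked bases and 6.75 bp within quartiles of GC content. It was called in none of these settings. The number of sites with the motif followed the length of the window, with 7113 for the central 100 bp and 26143 for the central 400 bp, and was 7964 in sites of at least 500 bp. The difference in median width passed the threshold in sites of at least 500 bp, with -50 bp, and in sites merged within 1 kb, with -158 bp. The difference in GC content passed it in windows without repeat-masked bases, with 0.723 percentage points, and in sites of at least 500 bp, with 0.668. In sites under 400 bp the share of occurrences within 50 bp of the centre turned below the even share, with 50.1%. When the motif was masked in its own sites and nothing in the others, 3 other motifs were called, all lower. In that setting fewer bases remained to search in the sites with the motif. The number of genes with a site was 3895 by overlap with the gene body. The causes of these changes were not tested. The comparison of centres with flanks lay between 6.98 and 8.24 points over its 5 alternatives.

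No paired analysis was possible because sites were listed once for all libraries, without signal. The tests of changed sites per time point and their alternatives were therefore not run. Depth limits which sites were called. The table gives no read totals, and for depth the study's methods name only a planned minimum.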
